A study of Homo sapiens with 6 samples.

Results

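The genes described here are 10 human reductases that remove reactive carbonyls and quinones: the aldo-keto reductases AKR1A1, AKR1B1, AKR1B10, AKR1C1, AKR1C2, AKR1C3 and AKR7A2, the quinone reductases NQO1 and NQO2, and the carbonyl reductase CBR1. They were chosen by gene symbol from a table of 58735 genes, each symbol matched exactly 1 row, and 8 of the 10 reached the mean of 1 FPKM over the 6 libraries that was required for testing. FPKM is a read level scaled by gene length and by a library total. The cells were labelled as SKM-1, a line from human acute myeloid leukaemia, and were kept for 48 h with celastrol (3 libraries) or with DMSO (3 libraries). Celastrol is a quinone methide triterpenoid of the thunder god vine, and DMSO is its solvent. No source used here gives its dose or says whether replicate libraries are separate cultures, and so the p-values rest on a spread between libraries that may be technical alone.

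Aldo-keto reductases use NADPH to turn aldehydes and ketones into alcohols. The AKR1C enzymes act on steroids and prostaglandins as well as on lipid aldehydes, and NQO1 reduces quinones directly to hydroquinones, which bypasses the reactive semiquinone. NQO1 and the AKR1C genes are textbook targets of NRF2, a transcription factor that KEAP1 marks for degradation until electrophiles modify KEAP1. NQO2, AKR1A1 and AKR7A2 are housekeeping members of their families in many tissues.

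Between 13549187 and 16231066 reads per library lay behind the deposited values. The library total behind FPKM came to 1.04 to 1.05 times the listed reads with celastrol and 0.963 to 0.994 times with DMSO, so the scaling differs by treatment. The label SKM-1 was set against cell markers. The leukocyte markers PTPRC, SPN and CORO1A were all expressed, summing to 71.2 to 77.3 FPKM with celastrol and 70.1 to 77.5 with DMSO, and CORO1A was called higher (log2 fold change 0.69, limma-trend adjusted p = 0.0082). Of 8 myeloid markers 4 were tested and 2, LYZ and ITGAM, were called lower, and the granule gene MPO was at 0 to 0.0337 FPKM. The myeloid sum was 42.0 to 46.9 FPKM with celastrol and 57.5 to 67.1 with DMSO, a fall carried by LYZ (means 17.6 and 38.0). SPI1 overlapped, at 19.8 to 24.1 and 14.97 to 22.1 FPKM, and the untested CD14 was higher without overlap, at 0.269 to 0.441 and 0.0737 to 0.158. The 3 stem cell markers summed to 39.0 to 49.7 and 64.7 to 76.2 FPKM, with KIT and MYB called lower and CD34 listed at 0 in all 6 libraries. Erythroid markers were expressed in these cells labelled as myeloid leukaemia, with DMSO means of 158 FPKM for GATA1 and 104.5 for KLF1. Of the 6 erythroid markers 4 were called lower, and their sum was 459.9 to 506.7 FPKM with celastrol and 561 to 575 with DMSO. RHAG, the largest of them, lay the other way without passing, at 284 to 296 and 247 to 270 FPKM (limma-trend adjusted p = 0.125). Of 7 markers of other cells 3 were tested and EPCAM was called lower (means 15.6 and 32.0 FPKM), the sums being 23.3 to 25.2 and 37.8 to 41.8. The identity of the line is taken from the labels and was not tested. In these bulk samples, fewer cells of a type and less RNA per cell cannot be told apart, and the part of these shifts in the values of the reductases was not tested.

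Of the 8 tested reductases, 4 were called higher with celastrol: NQO1, AKR1C1, AKR1C2 and AKR1C3. Their means were between 2.68 and 3.70 times the DMSO means. The share of all 12685 tested genes called higher was 15.3%, and 14.2% were called lower (limma-trend, threshold 0.05 on the p adjusted by Benjamini and Hochberg). All 4 had at least 2 times the DMSO mean, and 1.58% of all tested genes were called higher with at least that ratio. No reductase was called lower by limma-trend (0 also at an unadjusted p under 0.05) or by limma-voom, which put 1, AKR1A1, under an unadjusted p of 0.05. The groups did not overlap for 5 of the 8, against 47.3% of all tested genes: the 4 lay above DMSO (25.3% of all tested genes) and AKR1A1 below it (22%). The median log2 fold change of the 8 was 0.89, against 0.02 over all tested genes. CBR1 counts among the 8, although it reached the minimum for testing only through the celastrol libraries (DMSO mean 0.959 FPKM). The genes were proposed with results of these data known, so these counts are a description.

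**Figure D1:**
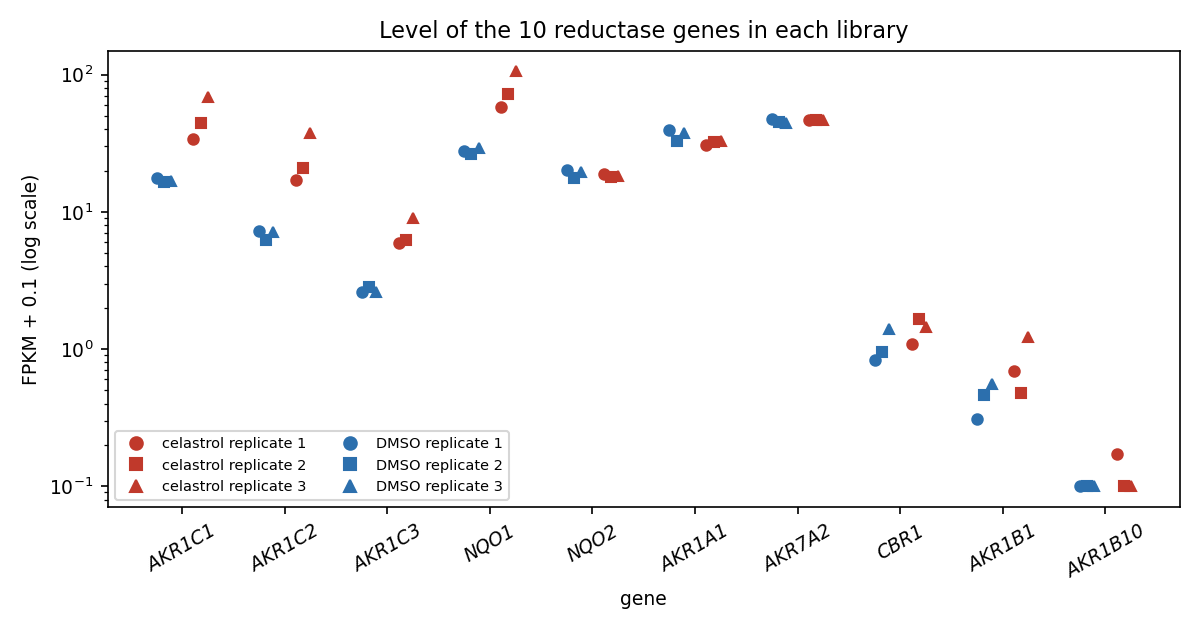
Level of the 10 reductase genes in each library, as FPKM plus 0.1 on a log axis, with celastrol in red and DMSO in blue and a symbol for each replicate. The celastrol points of AKR1C1, AKR1C2, AKR1C3 and NQO1 lie above all their DMSO points, and celastrol replicate 3 is the highest of each.

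NQO1 (ENSG00000181019, chromosome 16, 69706996 to 69726951 of GRCh38) had the highest mean FPKM of the 4 reductases called higher, with either treatment. AKR1C1, of longer deposited gene length (8765 bases against 3254 for NQO1), had more reads than NQO1 in every library. The level of NQO1 was 27.8, 26.4 and 28.9 FPKM in DMSO replicates 1 to 3 and 58.0, 72.6 and 105 FPKM in celastrol replicates 1 to 3. Every celastrol library was at least 2.09 times the DMSO mean, and replicate 3 stood well above the other two. The means were 78.7 ± 24.3 and 27.7 ± 1.23 FPKM (SD, n = 3 each). The log2 fold change was 1.46 (SE 0.19, 95% interval 1.01 to 1.90, limma-trend adjusted p = 0.00187). The DMSO libraries were close together, so nearly all of the spread was among the treated libraries.

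NQO2 (ENSG00000124588, chromosome 6, 2987987 to 3028869), the paralogue that uses dihydronicotinamide riboside rather than NADPH, was at 20.3, 17.7 and 19.4 FPKM with DMSO. With celastrol it was at 18.7, 17.9 and 18.3 FPKM. The celastrol values lay inside the DMSO range. The log2 fold change was -0.06 (SE 0.075, 95% interval -0.23 to 0.11, limma-trend adjusted p = 0.577), an interval that leaves out a change of the size seen for NQO1. The sign of this value turned to 0.18 after rescaling to TPM and to 0.038 when scaled to listed reads. The ratio of NQO1 to NQO2 within a library is free of that scaling: it was 1.37, 1.5 and 1.49 with DMSO and 3.09, 4.06 and 5.76 with celastrol. The ratio rose 2.87-fold on average, without overlap (log2 difference 1.52, SE 0.26). The two-sided exact permutation p was 0.1, which is the floor with 3 libraries a group, and 0.2 adjusted over 4 ratios.

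The coding sequences of NQO1 and NQO2 (GENCODE 29) were 50.1% identical in a global alignment, with no identical run longer than 12 bases. Reads from their coding bases can therefore be told apart. The AKR1C genes are a different case. Across the 972 coding bases, AKR1C1 and AKR1C2 were 98.0% identical, AKR1C1 and AKR1C3 91.5%, and AKR1C2 and AKR1C3 91.0%. The longest identical run was 189 bases between AKR1C1 and AKR1C2, 112 between AKR1C1 and AKR1C3 and 171 between AKR1C2 and AKR1C3. Of all 100-base windows of the AKR1C1 coding sequence, 19.1% occurred whole in AKR1C2 and 2.18% in AKR1C3. The window size was a choice made here. The gene lengths behind FPKM were 8765 bases for AKR1C1, 6461 for AKR1C2 and 4532 for AKR1C3. The 972 coding bases are a small part of these lengths. How many of the counted reads fell in the coding bases was not tested. The first 150 coding bases show how few letters separate the copies, with capitals at the bases that differ from AKR1C1: there are 8 in AKR1C2 and 19 in AKR1C3.
AKR1C1: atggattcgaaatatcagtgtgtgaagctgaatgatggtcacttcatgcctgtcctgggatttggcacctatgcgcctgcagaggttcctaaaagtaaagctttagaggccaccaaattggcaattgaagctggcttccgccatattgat
AKR1C2: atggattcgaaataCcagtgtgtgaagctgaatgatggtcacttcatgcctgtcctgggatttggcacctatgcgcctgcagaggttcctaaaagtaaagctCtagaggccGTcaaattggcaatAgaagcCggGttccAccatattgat
AKR1C3: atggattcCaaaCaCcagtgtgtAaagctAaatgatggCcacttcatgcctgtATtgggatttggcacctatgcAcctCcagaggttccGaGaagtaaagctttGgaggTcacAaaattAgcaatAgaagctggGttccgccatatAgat
Reads from the identical stretches can be exchanged between copies, and no source used here says how the authors' counting treated them.

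AKR1C1 (ENSG00000187134, chromosome 10, 4963253 to 4983283), which inactivates progesterone, was at 17.7, 16.3 and 16.6 FPKM with DMSO. With celastrol it was at 33.8, 44.1 and 68.9 FPKM, 2.90-fold higher on average. The lowest celastrol library was 2.00 times the DMSO mean and the highest 4.08 times. On the log2 scale the change was 1.47 (SE 0.22, limma-trend adjusted p = 0.00337). AKR1C1 gave most of the reads of the trio, with 1929 to 2233 reads per DMSO library and 4674 to 10160 per celastrol library.

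AKR1C2 (ENSG00000151632, chromosome 10, 4987400 to 5018031, on the opposite strand), which inactivates dihydrotestosterone, had the largest fold change of the 8 tested reductases. It was at 7.21, 6.16 and 7.06 FPKM with DMSO and at 16.8, 20.9 and 37.8 FPKM with celastrol. All 3 celastrol libraries were above every DMSO library, and replicate 3 was 2.00 times the mean of the other two. Its log2 fold change was 1.79 (SE 0.26, 95% interval 1.18 to 2.40, limma-trend adjusted p = 0.00281), and it ranked 41 by size among the 1947 genes called higher.

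AKR1C3 (ENSG00000196139, chromosome 10, 5035354 to 5107686) makes testosterone and prostaglandin F and was the scarcest of these AKR1C genes. It was at 2.50, 2.75 and 2.51 FPKM with DMSO and 5.80, 6.09 and 8.87 FPKM with celastrol. Its treated libraries were closer together than those of AKR1C1 and AKR1C2. On the log2 scale the change was 1.36 (SE 0.16, limma-trend adjusted p = 0.00117). Between 163 and 169 reads per DMSO library and 415 to 676 per celastrol library lay behind these values.

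The summed reads of AKR1C1, AKR1C2 and AKR1C3 are untouched by exchange among these genes. Before scaling for depth, they were 3067, 2633 and 3008 in DMSO replicates 1 to 3. In celastrol replicates 1 to 3 they were 6805, 9116 and 14942. The summed FPKM can shift with exchange, because the gene lengths differ. That sum was 27.4, 25.3 and 26.2 FPKM in DMSO replicates 1 to 3 and 56.4, 71.1 and 116 FPKM in celastrol replicates 1 to 3. The mean was 3.08 times higher with celastrol (81.0 ± 30.8 against 26.3 ± 1.08 FPKM, SD, n = 3), and 2.43 times higher without celastrol replicate 3. AKR1C1 was the largest part of the sum in every library. AKR1C1 gave 64.2 ± 0.708% of it with DMSO and 60.5 ± 1.30% with celastrol. AKR1C2 gave 25.9 ± 1.35% and 30.7 ± 1.78%, and AKR1C3 9.87 ± 0.924% and 8.84 ± 1.33%. The ratio of AKR1C2 to AKR1C1 was 0.408, 0.377 and 0.426 with DMSO and 0.498, 0.475 and 0.548 with celastrol, 1.26-fold higher without overlap (log2 difference 0.33, SE 0.080; two-sided exact permutation p = 0.1, 0.2 adjusted over 4 ratios). The ratio of AKR1C3 to AKR1C1 overlapped between treatments (log2 difference -0.079, SE 0.15; exact permutation p = 0.6, also 0.6 adjusted), and its difference was 0.007 without celastrol replicate 3.

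**Figure D2:**
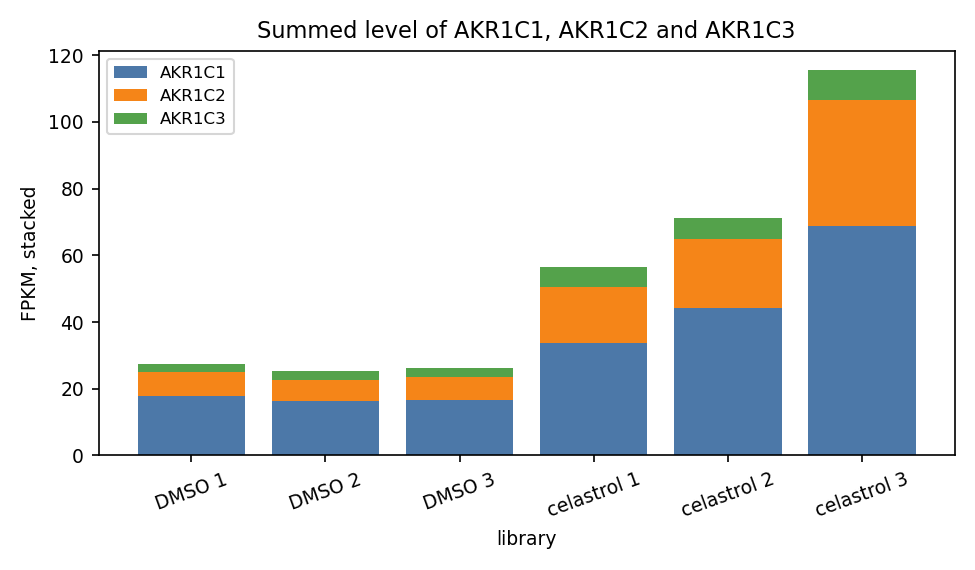
Stacked FPKM of AKR1C1, AKR1C2 and AKR1C3 in each of the 6 libraries, on a linear axis from 0. The DMSO sums lie between 25.3 and 27.4 FPKM and the celastrol sums between 56.4 and 116 FPKM, with AKR1C1 the largest share throughout.

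The start regions of these genes show the same kinship. RefSeq start-site windows (GRCh38.p14, 250 bases before to 50 after the annotated start) were available for 9 of the 10 genes. AKR1C1 and AKR1C2 were 97.3% identical over 296 aligned columns, with 4 mismatches, 4 gap columns and an identical run of 239 bases, although the genes lie on opposite strands. AKR1C3 was 75.7% identical to AKR1C1 over 300 columns. The windows are printed because these genes moved together, with capitals at the bases that differ from AKR1C1 in the alignment, gaps unmarked. AKR1C1 is at chr10:4963165-4963464 on the plus strand, AKR1C2 at chr10:5003808-5004107 on the minus strand and AKR1C3 at chr10:5048531-5048830 on the plus strand.
AKR1C1: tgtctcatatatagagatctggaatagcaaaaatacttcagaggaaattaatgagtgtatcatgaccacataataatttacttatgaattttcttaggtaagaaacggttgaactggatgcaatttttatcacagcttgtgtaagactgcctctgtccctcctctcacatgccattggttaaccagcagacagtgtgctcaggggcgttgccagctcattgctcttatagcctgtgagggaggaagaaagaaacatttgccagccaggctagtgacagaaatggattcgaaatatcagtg
AKR1C2: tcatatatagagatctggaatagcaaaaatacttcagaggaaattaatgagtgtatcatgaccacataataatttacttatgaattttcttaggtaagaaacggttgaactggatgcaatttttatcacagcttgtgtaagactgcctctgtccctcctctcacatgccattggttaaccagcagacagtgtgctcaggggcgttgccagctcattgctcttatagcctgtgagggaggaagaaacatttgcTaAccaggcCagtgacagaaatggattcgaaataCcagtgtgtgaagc
AKR1C3: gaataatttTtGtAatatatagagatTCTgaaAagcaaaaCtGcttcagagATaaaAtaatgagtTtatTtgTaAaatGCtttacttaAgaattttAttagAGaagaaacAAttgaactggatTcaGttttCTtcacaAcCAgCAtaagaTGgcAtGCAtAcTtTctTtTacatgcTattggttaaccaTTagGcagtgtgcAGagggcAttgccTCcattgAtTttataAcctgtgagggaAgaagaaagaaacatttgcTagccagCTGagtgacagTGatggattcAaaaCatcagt
The capitals are few in AKR1C2 and spread over the whole window in AKR1C3.

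The windows were searched on both strands for TGACNNNGC, the core letters of the antioxidant response element that NRF2 binds with a small MAF protein. Of all 35116 RefSeq windows of 300 bases, 13.3% held a match. None of NQO1, AKR1C1, AKR1C2 or AKR1C3 had a match in its window, and bases outside the windows were not searched. Matches were found in 2 of the 9 windows: AKR7A2 with 3 and CBR1 with 1. The NQO1 window (chr16:69726511-69726810, minus strand) and the AKR7A2 window (chr1:19312097-19312396, minus strand) are printed to set a called gene beside one that was not called, with capitals at the matches.
NQO1: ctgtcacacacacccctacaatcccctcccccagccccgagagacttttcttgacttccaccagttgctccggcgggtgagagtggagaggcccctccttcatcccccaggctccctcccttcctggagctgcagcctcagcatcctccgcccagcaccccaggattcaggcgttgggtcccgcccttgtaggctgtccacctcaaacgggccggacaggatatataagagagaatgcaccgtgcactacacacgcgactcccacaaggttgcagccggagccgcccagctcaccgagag
AKR7A2: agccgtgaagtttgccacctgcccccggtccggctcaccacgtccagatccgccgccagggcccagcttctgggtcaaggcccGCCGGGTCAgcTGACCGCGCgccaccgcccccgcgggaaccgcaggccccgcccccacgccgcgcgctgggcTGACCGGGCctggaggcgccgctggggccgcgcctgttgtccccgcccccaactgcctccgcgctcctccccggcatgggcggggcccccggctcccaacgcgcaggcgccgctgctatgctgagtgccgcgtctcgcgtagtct
A match is a run of letters and not a measured binding site, and a window without a match says nothing about the factor. The windows also differed in composition, with 33.7% to 41.3% G and C in the AKR1C genes and 61.3% to 80.3% in the other 6.

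AKR7A2 (ENSG00000053371, chromosome 1, 19303965 to 19312146), which reduces aflatoxin dialdehyde and succinic semialdehyde, was among the steadiest of the 10. It was at 47.5, 44.8 and 44.0 FPKM with DMSO and 47.0, 46.5 and 46.4 FPKM with celastrol. The celastrol values lay within the DMSO range. Its log2 fold change was 0.038 (SE 0.063, 95% interval -0.11 to 0.18, limma-trend adjusted p = 0.684). After rescaling to TPM it passed as higher, at 0.28 (adjusted p = 0.00792; 0.00792 to 0.916 over the 15 alternatives), a setting that moved the median of all tested genes to 0.26.

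AKR1A1 (ENSG00000117448, chromosome 1, 45550543 to 45570049), the general aldehyde reductase, was at 39.7, 32.9 and 37.5 FPKM with DMSO and 30.8, 32.2 and 32.8 FPKM with celastrol. The celastrol values lay below all DMSO values, by a small margin at DMSO replicate 2. The log2 fold change of -0.20 did not pass (SE 0.084, 95% interval -0.39 to 0.00, limma-trend adjusted p = 0.120). It passed as lower under quantile normalization (-0.23, adjusted p = 0.0479) and without DMSO replicate 2 (-0.27, adjusted p = 0.0264). Under TPM it was at 0.045. Over the 15 alternatives the adjusted p ran from 0.0264 to 0.648.

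CBR1 (ENSG00000159228, chromosome 21, 36069941 to 36073166), a carbonyl reductase of the short-chain dehydrogenase family that acts on menadione and anthracyclines, was near the minimum for testing. It was at 0.737, 0.849 and 1.29 FPKM with DMSO and 0.983, 1.55 and 1.36 FPKM with celastrol, from 26 to 63 reads per library. With a DMSO mean of 0.959 FPKM, CBR1 reached the minimum for testing only through the celastrol libraries, so its test is a description. The groups overlapped. The log2 fold change of 0.41 (SE 0.30, 95% interval -0.28 to 1.10, limma-trend adjusted p = 0.329) came with an interval that holds both a fall and a 2-fold rise. The ratio of CBR1 to AKR1A1 also overlapped (log2 difference 0.65, SE 0.31; exact permutation p = 0.2, adjusted 0.267).

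The AKR1B genes were hardly expressed. AKR1B1 (ENSG00000085662, chromosome 7, 134442350 to 134459284), the aldose reductase of the polyol pathway, was at 0.209, 0.365 and 0.459 FPKM with DMSO and 0.589, 0.378 and 1.12 FPKM with celastrol, from 11 to 69 reads. The groups overlapped, and the gene was under the minimum for testing. Tested with no filter on low values, its log2 fold change was 0.775 (SE 0.45, limma-trend adjusted p = 0.401). AKR1B10 (ENSG00000198074, chromosome 7, 134527592 to 134541408), a retinal and aldehyde reductase, had 2 reads in celastrol replicate 1 and was listed at 0 in the other 5 libraries. No change of AKR1B10 was detectable at this depth, and its ratio to AKR1B1 could not be formed.

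**Figure D3:**
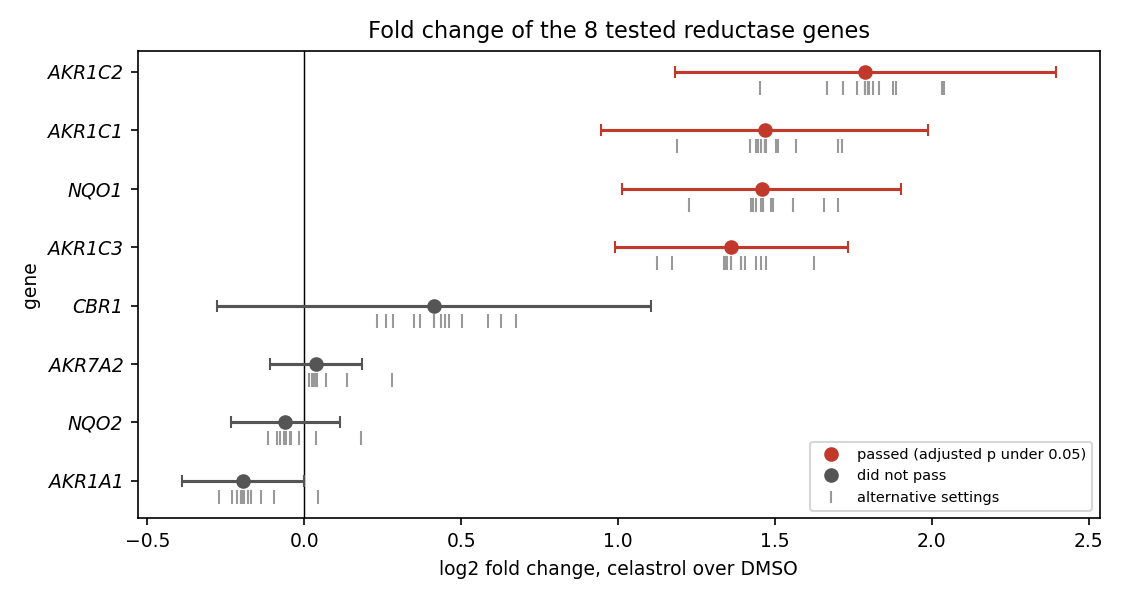
Log2 fold change of celastrol over DMSO for the 8 tested genes, with the limma 95% interval as a bar, red where the adjusted p is under 0.05, and grey ticks for the alternative settings. The intervals of AKR1C2, AKR1C1, NQO1 and AKR1C3 lie above 0.9 and all their ticks above 1, while those of the other 4 genes include 0 or end at it.

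By level in DMSO cells, the order was AKR7A2 (45.4 ± 1.82 FPKM), AKR1A1 (36.7 ± 3.48), NQO1 (27.7 ± 1.23), NQO2 (19.1 ± 1.33), AKR1C1 (16.9 ± 0.721), AKR1C2 (6.81 ± 0.568), AKR1C3 (2.59 ± 0.144), CBR1 (0.959 ± 0.293) and AKR1B1 (0.345 ± 0.127; SD, n = 3). NQO2 and AKR1C1 were the neighbours in that order whose libraries overlapped, with the lowest NQO2 value just under the highest AKR1C1 value. AKR1B10 came last in both treatments. With celastrol the order became NQO1 (78.7 ± 24.3 FPKM), AKR1C1 (48.9 ± 18.1), AKR7A2 (46.6 ± 0.308), AKR1A1 (31.9 ± 1.02), AKR1C2 (25.2 ± 11.1), NQO2 (18.3 ± 0.439), AKR1C3 (6.92 ± 1.69), CBR1 (1.30 ± 0.288) and AKR1B1 (0.696 ± 0.383). In FPKM, NQO1 moved from the third place to the first. Both orders depend on the deposited gene lengths, such as 1781 bases for AKR7A2 and 11558 for NQO2. Reads gave another order. NQO2 had the most with DMSO (2747 to 3370 per library, against 1074 to 1218 for AKR7A2). AKR1C1 had the most with celastrol (4674 to 10160, against 2978 to 5770 for NQO1). The neighbours NQO1 and AKR1C1 overlapped with celastrol, as did AKR1C1 and AKR7A2, AKR1A1 and AKR1C2, AKR1C2 and NQO2, and CBR1 and AKR1B1.

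Celastrol replicate 3 was the highest library for all 4 reductases called higher. It was also the highest for 59.9% of the 1947 genes called higher, against 18.2% for celastrol replicate 1 and 21.9% for replicate 2. Without it the mean folds were 2.36 for NQO1, 2.31 for AKR1C1, 2.77 for AKR1C2 and 2.30 for AKR1C3, and all 4 calls held (log2 fold changes 1.17 to 1.45). Among the other reductases, the value of that library over the mean of celastrol replicates 1 and 2 was 0.999 for NQO2, 0.992 for AKR7A2, 1.04 for AKR1A1, 1.07 for CBR1 and 2.32 for the untested AKR1B1 (69 reads there), against 1.62 for NQO1 and 1.77 for AKR1C1.

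NQO1 and AKR1C1 had close profiles over the 6 libraries although they lie on different chromosomes. Likeness was measured as the Euclidean distance between log2(FPKM + 0.1) values centred on the DMSO mean, and it was 0.160 for this pair. AKR1C1 lay farther from its own near-copies, at 0.586 from AKR1C2 and 0.403 from AKR1C3. Of 10064 other tested protein-coding genes, the 5 most like NQO1 were IFI6 (0.169), VWA5A (0.185), TMEM243 (0.234), EPHX1 (0.276) and PKM (0.338). EPHX1 encodes microsomal epoxide hydrolase and PKM a pyruvate kinase. The 5 most like AKR1C2 were UPP1 (0.164), NES (0.373), PI16 (0.462), CUEDC1 (0.465) and IER3 (0.476). UPP1 encodes uridine phosphorylase and NES the intermediate filament nestin. UPP1, PI16 and CUEDC1 had DMSO means of 0.519, 0.553 and 0.561 FPKM, from 16 to 54 reads per DMSO library. These 3 reached the minimum for testing only through the celastrol libraries. At such levels the 0.1 added before the log2 matters. With 0.01 added, the log2 fold change of UPP1 moved from 1.795 to 1.958, and that of AKR1C2 from 1.787 to 1.800. These 10 genes were selected for their likeness, so their values are a description.

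Around the AKR1C genes, 17 genes are annotated between 200 kb before AKR1C1 and 200 kb after AKR1C3, and 8 of them were tested. AKR1E2, a neighbouring aldo-keto reductase, was at 8.57 to 9.84 FPKM with celastrol and 7.84 to 11.1 with DMSO (log2 fold change -0.060, limma-trend adjusted p = 0.757). Its sign turned with either rescaling (TPM or listed reads) and without DMSO replicate 1. The pseudogene AKR1C7P was at 2.62, 2.09 and 3.99 FPKM with celastrol and 1.24, 1.33 and 0.451 with DMSO (log2 fold change 1.51, limma-trend adjusted p = 0.0263). These values rest on 31 to 60 reads per celastrol library and 6 to 16 per DMSO library. Whether reads of the AKR1C genes were counted in AKR1C7P was not tested. LINC02561, a noncoding gene beside AKR1C7P, was at 1.74, 2.52 and 1.89 FPKM with celastrol and 0.502, 1.5 and 0.486 with DMSO (1.36, limma-trend adjusted p = 0.0406). LINC02561 had 19 to 29 reads per celastrol library and 5 to 14 per DMSO library. With a DMSO mean of 0.830 FPKM, it reached the minimum for testing only through the celastrol libraries, so its call is a description. AKR1C7P lost its call without celastrol replicate 1 or 3 (adjusted p = 0.0588 and 0.0923), and LINC02561 lost it without each library except DMSO replicate 2 (highest 0.133). Both also lost it with no filter on low values (0.0899 and 0.117). AL391427.1, antisense within AKR1C2, had a log2 fold change of 0.98 that did not pass (limma-trend adjusted p = 0.135). With a DMSO mean of 0.741 FPKM, AL391427.1 also reached the minimum for testing only through the celastrol libraries. Strandedness of the libraries is unstated, so its reads and those of AKR1C2 may not be told apart. The liver enzyme AKR1C4 was at 0.157 to 0.652 FPKM and AKR1C8P at 0.0576 to 0.318, both untested.

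Of 15 other aldo-keto and carbonyl reductases, 7 were tested, 1 was called higher and 0 lower, with a median log2 fold change of 0.017. The count of higher genes is near the 15.3% of all tested genes. The called gene was KCNAB2, a potassium channel subunit of aldo-keto reductase fold, at 5.14 ± 0.332 FPKM with celastrol and 3.53 ± 0.419 with DMSO (log2 fold change 0.53, limma-trend adjusted p = 0.01). DCXR, which reduces xylulose and dicarbonyls, was at 52.9 ± 0.980 and 52.6 ± 6.51 FPKM (0.017, adjusted p = 0.904). DCXR passed as higher under TPM (0.26, adjusted p = 0.0367) and its sign turned without DMSO replicate 2. CBR4, a mitochondrial carbonyl reductase, was lower without overlap, at 3.49 to 3.75 FPKM against 4.08 to 5.33, and did not pass (-0.32, limma-trend adjusted p = 0.0781). KCNAB3, another channel subunit, was untested at 0.195 to 0.346 FPKM with celastrol and 0.409 to 0.499 with DMSO. CBR3, the neighbour and paralogue of CBR1, was listed at 0 in 5 libraries and at 0.0575 FPKM in DMSO replicate 3.

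Among 16 other enzymes of quinones, enones and aldehydes, 12 were tested, with 3 higher and 1 lower (median 0.11), against 15.3% and 14.2% of all tested genes. ALDH1A1, which oxidises retinal and lipid aldehydes, rose from 60.1 ± 1.30 to 108 ± 11.3 FPKM (log2 fold change 0.84, limma-trend adjusted p = 0.000682). CRYZ, an NADPH quinone reductase of another family, rose from 12.7 ± 1.41 to 18.6 ± 2.64 FPKM (0.55, adjusted p = 0.0139). POR, the electron donor of cytochromes P450, was called at 0.38 (adjusted p = 0.0460), a call lost with no filter on low values and whenever replicate 2 or 3 of either treatment was left out (highest 0.126). The mitochondrial ALDH2, which oxidises acetaldehyde, was the lower gene, at 4.90 ± 0.0641 against 7.35 ± 0.593 FPKM (-0.57, adjusted p = 0.00275).

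Among other NRF2 targets, calls were mostly higher: of 25 listed genes 21 were tested, 11 were higher and 2 lower, against 15.3% and 14.2% of all tested genes, with a median of 0.35 against 0.02. EPHX1 rose from 16.3 ± 0.467 to 44.0 ± 8.21 FPKM (log2 fold change 1.41, limma-trend adjusted p = 0.000389), close in size to NQO1. FTL, the ferritin light chain, was at 4776, 5543 and 7734 FPKM in the celastrol libraries and 2721 to 2778 with DMSO (1.10, adjusted p = 0.00280). OSGIN1, an oxidative stress response gene, was at 4.01, 5.57 and 11 FPKM with celastrol and 2.60 to 3.27 with DMSO (1.11, adjusted p = 0.0352). The OSGIN1 call was lost without celastrol replicate 2 or any DMSO library, and with no filter on low values, where FTL also lost its call (0.110). Celastrol replicate 3 was the highest library for 10 of the 11 called higher. The lower genes were SLC7A11, the cystine importer, at -1.10 (adjusted p = 0.00266), and BLVRB, biliverdin reductase B, at -0.36 (adjusted p = 0.0401). BLVRB kept its call in 7 of 15 alternatives. HMOX1 was at 0 to 0.198 FPKM and untested. The untested ABCC2 was higher without overlap, at 0.0809 to 0.197 FPKM with celastrol and 0.00858 to 0.0190 with DMSO. It had 10 to 26 reads per celastrol library and 1 to 2 per DMSO library. GPX2 and TRIM16L, also untested, overlapped between treatments.

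**Figure D4:**
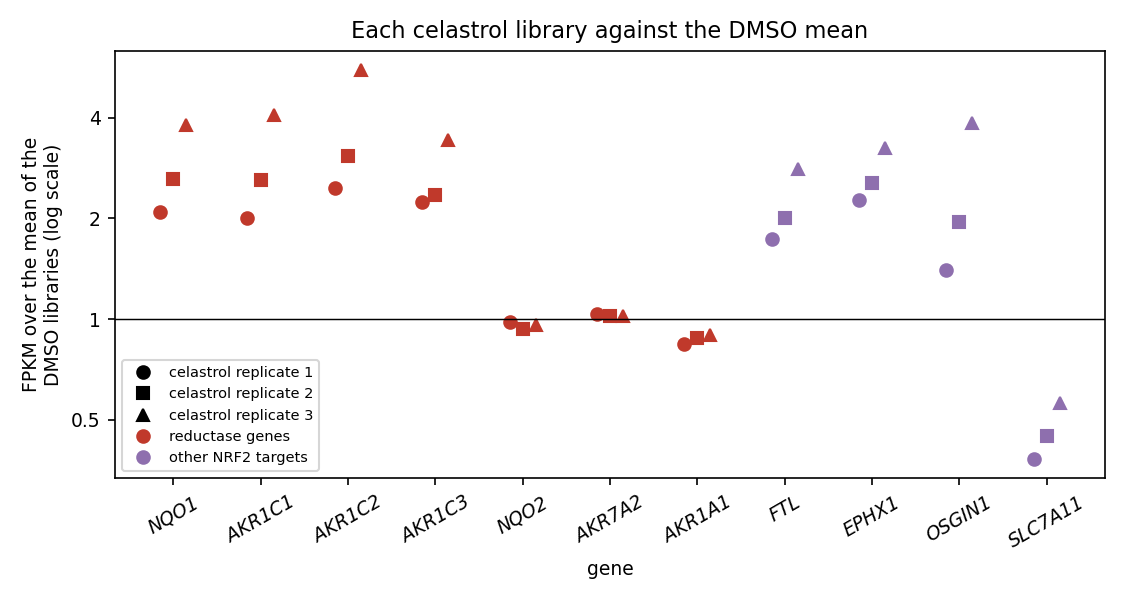
FPKM of each celastrol library over the mean of the 3 DMSO libraries, on a log axis, for 7 reductases (red) and 4 other NRF2 targets (purple), with a symbol for each replicate. NQO1 and the AKR1C genes lie between 2.00 and 5.55 times the DMSO mean with replicate 3 on top, and NQO2, AKR7A2 and AKR1A1 lie between 0.840 and 1.03.

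Of 12 NRF2 regulators 11 were tested, with 1 higher, 2 lower and a median of -0.035, counts near the 15.3% higher and 14.2% lower of all tested genes. NFE2L2, which encodes NRF2, was at 15.1, 13.3 and 14.5 FPKM with celastrol and 17.2, 21.9 and 19.5 with DMSO (log2 fold change -0.44, limma-trend adjusted p = 0.0166). That call was lost under TPM (0.166) and without celastrol replicate 2 or DMSO replicate 3 (0.0655 and 0.0595). MAFG, a small MAF partner of NRF2, fell from 39.0 ± 2.65 to 28.4 ± 0.472 FPKM (-0.45, adjusted p = 0.00398). CUL3, the scaffold of the KEAP1 ubiquitin ligase, rose from 4.25 ± 0.566 to 6.32 ± 0.354 FPKM (0.57, adjusted p = 0.00900). These values are mRNA levels, and NRF2 is controlled largely through the stability of its protein, which was not measured.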

How the data were processed

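RNA was sequenced from 3 celastrol and 3 DMSO libraries of cells labelled SKM-1. The deposited table gives FPKM, set by the authors from reads, gene length and a library total. Gene lengths in bases are also deposited by the authors and served to recover reads. The submitters' processing notes name GRCh38 (hg38), featureCounts 1.5.0-p3 and HISAT2 2.0.5, without settings. Reads were recovered from FPKM and length; 100% of values came out whole to within 0.001 reads.

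Tests used limma-trend (limma 3.58.1, R 4.3.3) on log2(FPKM + 0.1) over 12685 genes with a mean of at least 1 FPKM, with treatment as the single term, two-sided, Benjamini-Hochberg adjusted over all of them, threshold 0.05. Fold changes of low genes are understated on that scale. Means and SD are of FPKM. The fit was tested on simulated counts with known changes. That simulation gave both treatments the same spread, whereas the called reductases spread more among the celastrol libraries. It therefore does not check their p-values. Ratios within a library used exact permutation tests in scipy 1.17.1. The members and lists were chosen with earlier results of these data known. Named genes are the 10 members and up to 4 called genes of each list (the most abundant where fewer than 2 were called). Also named are the 5 genes most like NQO1 and AKR1C2, and genes within 200 kb of the AKR1C genes. BLVRB, CBR3, CBR4, KCNAB3, HMOX1, ABCC2, GPX2, TRIM16L and the single cell markers printed were chosen after their values were seen. Coding sequences came from GENCODE 29. Alternatives were other pseudocounts and filters, TPM, listed reads, quantile normalization, limma-voom, a replicate block and leaving out each library. All value columns belong to these samples.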

Additional observations from a re-analysis of the deposited data

How the results depend on the processing

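NQO1, AKR1C1 and AKR1C2 kept direction and call under all 15 alternatives, and AKR1C3 under the 14 that tested it (a minimum mean of 5 FPKM removed it). Their highest adjusted p-values in limma were 0.0119, 0.0190, 0.0169 and 0.00823. Between 3 and 5 reductases were called higher. Of those called lower there was 1 under quantile normalization and 0 to 1 over the left-out libraries, in each case AKR1A1. Signs turned under TPM for AKR1A1 (0.045), NQO2 (0.18) and AKR1E2 (0.18), when scaled to listed reads for NQO2 (0.038) and AKR1E2 (0.037), and among the left-out libraries for DCXR (-0.083 to 0.096), AKR1E2 (-0.20 to 0.051) and the ratio of AKR1C3 to AKR1C1 (-0.20 to 0.007). The scalings moved the median of all tested genes from 0.02 to 0.26 under TPM and 0.12 with listed reads; for left-out libraries the cause was not tested. Genes called higher, 1947 as deposited (52% of calls), were 5266 under TPM (86.6%) and 3024 with listed reads (70%), and 1119 to 1948 over the left-out libraries, the lowest without celastrol replicate 2. Genes called lower, 1797 as deposited, were 813 under TPM and 1003 to 1766 over the left-out libraries, the lowest without DMSO replicate 3.

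With the replicate number as a block there were 1776 higher and 1617 lower genes, and no reductase changed its call. Deviations of same-numbered libraries from their group means correlated at -0.0156, -0.0326 and 0.0339 over all tested genes. Such values cannot exclude a shared culture or batch that acts on some genes, and pairing was not tested further. In the block form the smallest exact p of a ratio is 0.25, and the ratio of NQO1 to NQO2 kept its difference of 1.52. The precision of CBR1, AKR1B1 and AKR1B10 is limited by their reads.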
